A study of Mus musculus with 8 samples.

Results

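The genes described here are the variable segments of the immunoglobulin heavy, kappa and lambda chains whose transcripts were measured in mouse liver. They were chosen by symbol (*Ighv*, *Igkv* or *Iglv*) and by level: at least 1 TPM, a transcript abundance corrected for length and scaled to each library's total, in at least 4 of the 8 libraries. Of 348 variable segments listed, 74 met this rule, 25 of 185 heavy, 47 of 160 kappa and 2 of 3 lambda segments, among 55416 gene identifiers in all. RNA sequencing was done on whole liver from 4 floxed controls (genotype Alb-cre-, labelled FLOX) and 4 hepatocyte knockouts of *Smpd3* (Alb-cre+, labelled HKO), using a stranded total RNA kit. Every animal had been on the HFMCD diet, given to bring on steatohepatitis, for 9 weeks. The Cre of the knockouts is driven by the albumin promoter, which is active in hepatocytes. Since the controls carry no Cre, effects of Cre itself and of *Smpd3* loss cannot be told apart. *Smpd3* encodes neutral sphingomyelinase 2, and its level lay between 6.38 and 12.54 TPM across the controls and between 1.17 and 3.03 TPM across the knockouts. No label ties each library to an animal of its own, so every p-value given below reflects the spread between samples, which may be technical.

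An antibody is built from a heavy chain and a light chain, which is kappa or lambda. In each developing B cell one variable segment of each chain is joined by DNA recombination to short joining segments, and the joined exon is spliced to a constant gene. The choice of segment sets much of the antigen binding site, and all descendants of a B cell carry the same choice, so that an expanded clone adds transcripts of 1 heavy and 1 light variable segment. Plasma cells, the antibody-secreting descendants of B cells, hold by far the most of this RNA. In whole liver these transcripts come from B lineage cells in the tissue or its blood, and in bulk RNA fewer such cells and less RNA per cell cannot be told apart.

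The segments that carry the results differ in how well short reads can tell them from their relatives, so the last 90 coding bases are shown for 4 pairs, 5′ to 3′, from the GENCODE M21 transcripts of build GRCm38. These bases are the end of the variable segment, up to the point of joining. Capitals mark the bases that differ from the other segment of the pair. The first pair is *Iglv3*, which passed the test, and *Iglv1*, the most abundant lambda segment.
Iglv3: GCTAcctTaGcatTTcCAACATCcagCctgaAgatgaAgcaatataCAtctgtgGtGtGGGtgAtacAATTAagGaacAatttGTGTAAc
Iglv1: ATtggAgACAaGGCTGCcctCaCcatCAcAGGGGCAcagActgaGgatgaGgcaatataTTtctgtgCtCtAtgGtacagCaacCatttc
The second pair is *Igkv3-4*, which also passed, and its neighbour *Igkv3-5*.
Igkv3-4: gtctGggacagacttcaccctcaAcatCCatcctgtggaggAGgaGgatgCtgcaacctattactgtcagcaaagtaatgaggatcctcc
Igkv3-5: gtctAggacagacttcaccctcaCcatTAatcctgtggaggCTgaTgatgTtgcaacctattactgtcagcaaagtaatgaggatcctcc
The third pair, *Igkv1-110* and *Igkv1-117*, led the kappa chain in the 4 knockouts.
Igkv1-110: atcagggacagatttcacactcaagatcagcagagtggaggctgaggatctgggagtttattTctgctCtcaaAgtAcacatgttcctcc
Igkv1-117: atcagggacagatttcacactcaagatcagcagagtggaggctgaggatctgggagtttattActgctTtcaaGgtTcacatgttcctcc
In the fourth pair, *Ighv1-81* led the heavy chain in 3 knockouts and *Ighv1-82* led it in floxed control 3.
Ighv1-81: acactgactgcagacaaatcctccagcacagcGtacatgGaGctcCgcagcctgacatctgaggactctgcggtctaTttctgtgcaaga
Ighv1-82: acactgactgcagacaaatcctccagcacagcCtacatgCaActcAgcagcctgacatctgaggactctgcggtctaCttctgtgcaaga

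Over the whole coding sequence, *Iglv3* was 52.8% identical to *Iglv1*, and the longest run of bases they shared was 10. None of the windows of 50 bases in *Iglv3* occurred in another listed variable segment, so that 100% of its windows were its own. *Igkv3-4* was 91.9% identical to *Igkv3-5* and 94.2% to *Igkv3-3*, and 65.8% of its windows were its own. *Igkv1-110* and *Igkv1-117* were 97.2% identical and shared a run of 142 bases, with 55.8% and 56.5% of windows their own. *Ighv1-81*, at 88% identity with *Ighv1-82*, had 88.4% of its windows to itself. Over the 74 segments the median share of such windows was 69.2%, from 2.6% in one *Ighv1* segment to 100% in 11 segments. How the authors' counting divided reads between near-identical segments was not tested, and values of single segments with a low share are uncertain in that respect. The closest relative of a segment was a median of 95.7% identical for heavy and 95.4% for kappa.

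Antibody transcripts were a small part of the liver RNA. The 348 segments together made up from 0.0170% to 0.0497% of the TPM of a library. Of these segments, 170 were listed at 0 in all 8 libraries, and 104 were above 0 but below the rule. Among the 130 listed as pseudogenes, 5 were above 0 in any library and 0 met the rule. Of the 74, only 15 reached 1 TPM in all 8 libraries, 4 heavy, 10 kappa and 1 lambda, and 24 had a mean under 2 TPM. Mean levels ran from 1.02 to 7.38 TPM in the heavy chain and from 0.742 to 17.8 TPM in the kappa chain. Judged by the fourth-highest library, the segments inside the rule and nearest its limit were *Ighv1-7* at 1.19 and *Igkv4-53* at 1.02 TPM, and in the lambda chain *Iglv3* at 2.24 TPM. The nearest outside were *Ighv1-59* at 0.98 TPM, *Igkv13-85*, *Igkv4-74* and *Igkv4-91* at 0.93 TPM each, and *Iglv2* at 0.50 TPM. Depth is unknown in TPM, and the lowest values above 0 were 0.19 to 0.40 TPM. Of segments above 0 and below 3 TPM, 40.3% to 53.2% in each library shared their value with another. Several *Ighv1* segments of floxed control 1 lay on even steps, at 0.41, 0.83, 1.24, 1.65 and 2.07 TPM. If 1 step is 1 read, a level near 1 TPM rests on few reads, and its counting error was not computed.

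Floxed control 4 and knockout 2 were the lowest libraries of the 8 for several antibody genes: the summed heavy and kappa variable levels, *Igha*, *Ighg2b*, *Ighg2c* and *Jchain*. This did not hold for *Igkc*, where knockouts 2 and 4 were lowest, the lambda sum, where knockouts 4 and 3 were, or *Ighm*. Fewer genes reached 1 TPM in floxed control 4 (12115) than in any other library (12474 to 12890). Results that rest on these libraries are given with and without them.

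Summed variable segment RNA was lower on average in the knockouts for all chains, but the groups overlapped in each. The heavy sum over all listed segments was 136, 168, 150 and 44.7 TPM in floxed controls 1 to 4, and 75.2, 52.5, 91.0 and 91.6 TPM in knockouts 1 to 4. Controls 1, 2 and 3 lay above all knockouts and control 4 below them. The heavy means were 125 ± 55.0 and 77.6 ± 18.3 TPM (SD, n = 4 per group). Without floxed control 4 the control mean was 151 ± 16.3 TPM. The kappa sum was 242, 312, 309 and 131 TPM across the controls and 237, 109, 229 and 180 TPM across the knockouts, with means of 248 ± 84.7 and 189 ± 58.7 TPM. Here control 4 and knockout 2 were the lowest of the 8, while control 1 and knockout 1 were about level. The lambda sum was 14.8, 13.4, 16.8 and 6.99 TPM across the controls and 9.77, 7.23, 6.72 and 4.43 TPM across the knockouts, with means of 13 ± 4.25 and 7.04 ± 2.19 TPM. Only control 4 overlapped the knockouts in the lambda sum, lying below knockouts 1 and 2. All lambda sums and differences given include *Iglv3*, which met the rule by the controls alone. Without it, *Iglv1* and *Iglv2* together were at 10.7, 9.58, 9.37 and 4.75 TPM across the controls. Across the knockouts they were at 9.46, 7.23, 6.72 and 4.43 TPM, with means of 8.61 ± 2.64 and 6.96 ± 2.06 TPM and overlapping groups. Over the segments that met the rule, the log2 difference of the sums (knockout minus control) was -0.61 for heavy, -0.33 for kappa and -0.84 for lambda. Without floxed control 4 it was -1.03, -0.59 and -1.18, and without both low libraries -0.87, -0.36 and -1.20. Without knockout 2 alone the kappa difference was -0.09. These sums were not tested, since the segments were chosen with results of these data known.

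**Figure D1:**
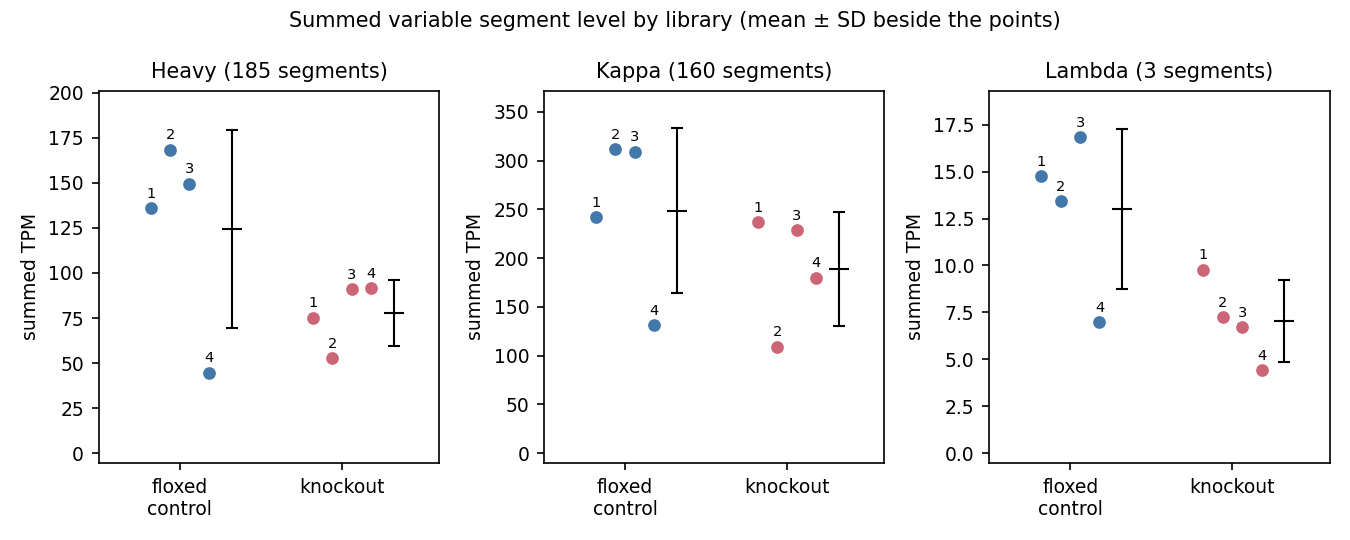
Summed TPM of all listed heavy, kappa and lambda variable segments in each library (y axis, TPM; digits are replicate numbers; bars are mean ± SD of 4 libraries). Floxed control 4 sits at 44.7 TPM in the heavy panel, below every knockout, while the other controls are at 136 TPM or more.

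Most single segments had a lower mean log2 level in the knockouts. Of the 74, which include the 2 that met the rule by the controls alone, 59 had a negative log2 fold change (knockout minus control, on log2(TPM + 1)) and 15 a positive one, against 35.4% negative over the 12710 genes tested. By chain these were 22 of 25 heavy, 35 of 47 kappa and 2 of 2 lambda. The median fold change on the log2 scale was -0.44 for heavy and -0.34 for kappa segments, and 0.05 over all genes tested. With floxed control 4 and knockout 2 both left out, 22 heavy and 34 kappa segments had a negative value, with medians of -0.70 and -0.32, and the share over all genes was 57.0%. Leaving out 1 library at a time, the number of kappa segments with a negative value lay between 29 (without knockout 2, with a median of -0.13) and 38 (without floxed control 4, with a median of -0.54). For heavy segments it lay between 17 (without floxed control 2, with a median of -0.24) and 23 (without floxed control 4, with a median of -0.82). The share over all genes tested lay between 27.5% and 51.3% in these fits. The segments of 1 library share its B lineage cells, so that they are not independent of one another.

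In limma, with Benjamini-Hochberg adjustment over all genes tested, 2 of the 74 segments passed an adjusted p of 0.05, *Iglv3* and *Igkv3-4*, and both were lower in the knockouts. The background was 13 of 12710 genes, or 0.102%, in either direction, 0.0551% lower and 0.0472% higher. Both segments met the level rule by the 4 controls alone, as did 5 of all genes tested (0.0393%; 0.0157% met it by the 4 knockouts alone), so they had to differ between the groups in order to be tested, and their calls are not counted as evidence beyond their values. Of those 5 genes, 2 passed, and these were the 2 segments. Separately, the ranges of the groups did not overlap in 9 of the 74 segments (12.2%), 8 lower and 1 higher in the knockouts, against 4.74% of all genes tested (1.46% lower and 3.29% higher). *Iglv3* and *Igkv3-4* are 2 of the 8, and for them the level rule fixed this too. Leaving out all genes that met the rule by 1 group alone, 7 of 72 segments (9.72%) did not overlap, 6 lower and 1 higher, against 4.69% of 12703 genes (1.42% lower and 3.27% higher).

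**Figure D2:**
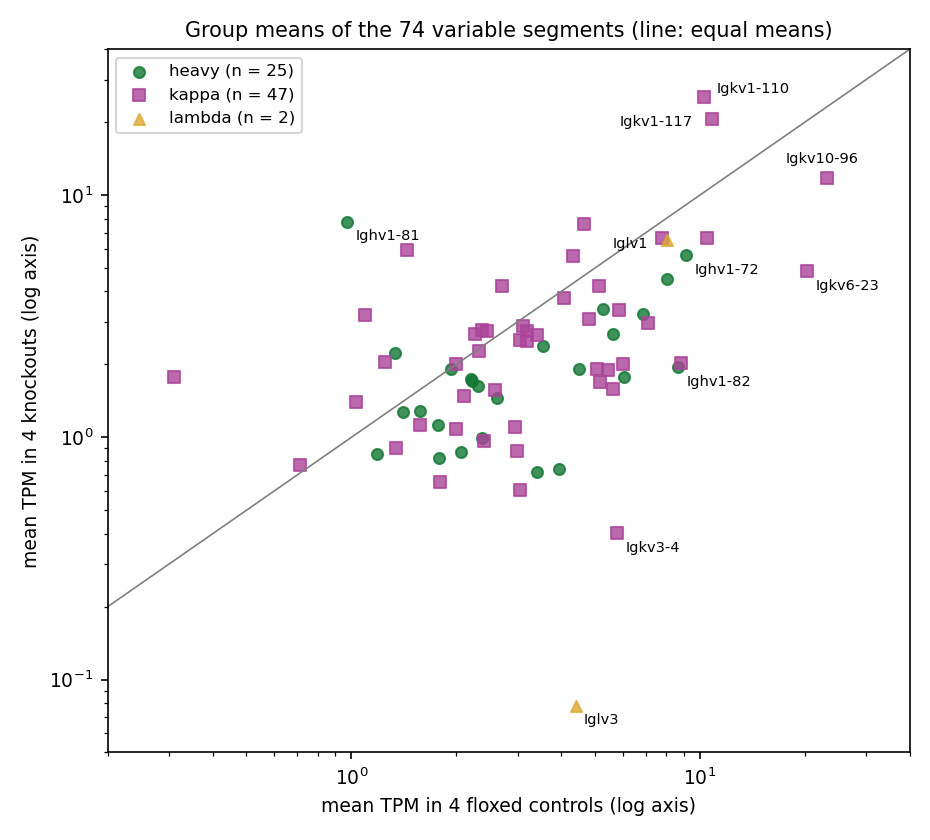
Mean TPM of the 74 segments in 4 floxed controls (x axis, log scale) and 4 knockouts (y axis, log scale), coloured by chain; the line marks equal means. Iglv3 and Igkv3-4 lie farthest below the line, and Ighv1-81 and the abundant Igkv1-110 are among the segments above it.

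*Iglv3* (ENSMUSG00000076939, chromosome 16) is 1 of the 3 lambda variable segments of the mouse listed in the table. Its level was 4.03 TPM in floxed control 1, 3.86 in control 2, 7.47 in control 3 and 2.24 in control 4. Among the knockouts it was 0.31 TPM in knockout 1 and listed at 0 in knockouts 2, 3 and 4. Every control was above every knockout. The log2 fold change was -2.25 ± 0.26 (SE), with an adjusted p of 0.0300 in limma. The call was lost in limma with no filter on low values (adjusted p = 0.167), with a filter on the mean over all libraries, which does not favour 1 group (0.0557), with a pseudocount of 5 (0.0579), and without floxed control 1 (0.0874), knockout 2 (0.0968) or knockout 3 (0.0622). With so low a level in the knockouts the size of the fold change depends on the pseudocount, from -0.86 with 5 to -4.86 with 0.1 on the log2 scale.

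The other lambda segments, which lie on either side of *Iglv3* in the locus, overlapped between the groups. *Iglv1* stood at 10.7, 8.55, 9.37 and 3.52 TPM across the controls and at 8.27, 6.73, 6.72 and 4.43 TPM across the knockouts. Its groups overlapped, and its log2 fold change was -0.20 ± 0.29 (SE; adjusted p = 0.937 in limma). *Iglv2*, 96.9% identical to *Iglv1*, was at 0, 1.03, 0 and 1.23 TPM across the controls and at 1.19, 0.50, 0 and 0 TPM across the knockouts. It did not meet the rule. As a share of the lambda sum, *Iglv3* made up 27.3% to 44.4% in the controls and 0% to 3.17% in the knockouts. *Iglv1* accordingly made up 50.4% to 72.7% in the controls and 84.6% to 100% in the knockouts. With *Iglv2* these shares add up to the whole, so that they are not independent of each other.

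*Igkv3-4* (ENSMUSG00000096715, chromosome 6) is a kappa segment that lies between *Igkv3-5* and *Igkv3-3*. It measured 6.19 TPM in floxed control 1, 5.32 in control 2, 9.02 in control 3 and 2.59 in control 4, and 0.36, 0.41, 0 and 0.84 TPM in knockouts 1 to 4. All controls were above all knockouts. The log2 fold change was -2.21 ± 0.30 (SE), with an adjusted p of 0.0300 in limma. That call was kept in limma without floxed control 3, floxed control 4 or knockout 4, and lost without each of the other 5 libraries, with an adjusted p of up to 0.101. It was also lost in limma with no filter (adjusted p = 0.202), with the filter on the mean (0.0560) and with pseudocounts of 0.1 (0.0794) and 5 (0.0601). *Igkv3-5*, whose end is printed beside it, was at 6.90, 1.36, 1.69 and 2.23 TPM across the controls and at 0.62, 0.71, 0 and 1.09 TPM across the knockouts. Its groups did not overlap either, but it did not pass (log2 fold change of -1.20, SE 0.37; adjusted p = 0.337 by limma). *Igkv3-3*, the closest in sequence of the neighbours compared, was at 0.39 TPM in floxed control 1 and listed at 0 in the other libraries. *Igkv3-4* and *Igkv3-5* together came to 4.82 to 13.1 TPM across the controls and 0 to 1.93 TPM across the knockouts, a sum that does not depend on how reads were divided between these 2. The closest relative of *Igkv3-5* was *Igkv3-10*, at 98.3% identity, and 47.4% of the windows of *Igkv3-5* were its own. With *Igkv3-3* and *Igkv3-10* added, the sum was 6.56 to 14.7 TPM across the controls and 0 to 3.85 TPM across the knockouts. The rest of the *Igkv3* family, without *Igkv3-4*, stood at 21.8 ± 5.27 TPM across the controls and 16.4 ± 7.6 TPM across the knockouts (SD, n = 4 per group), and its groups overlapped.

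**Figure D3:**
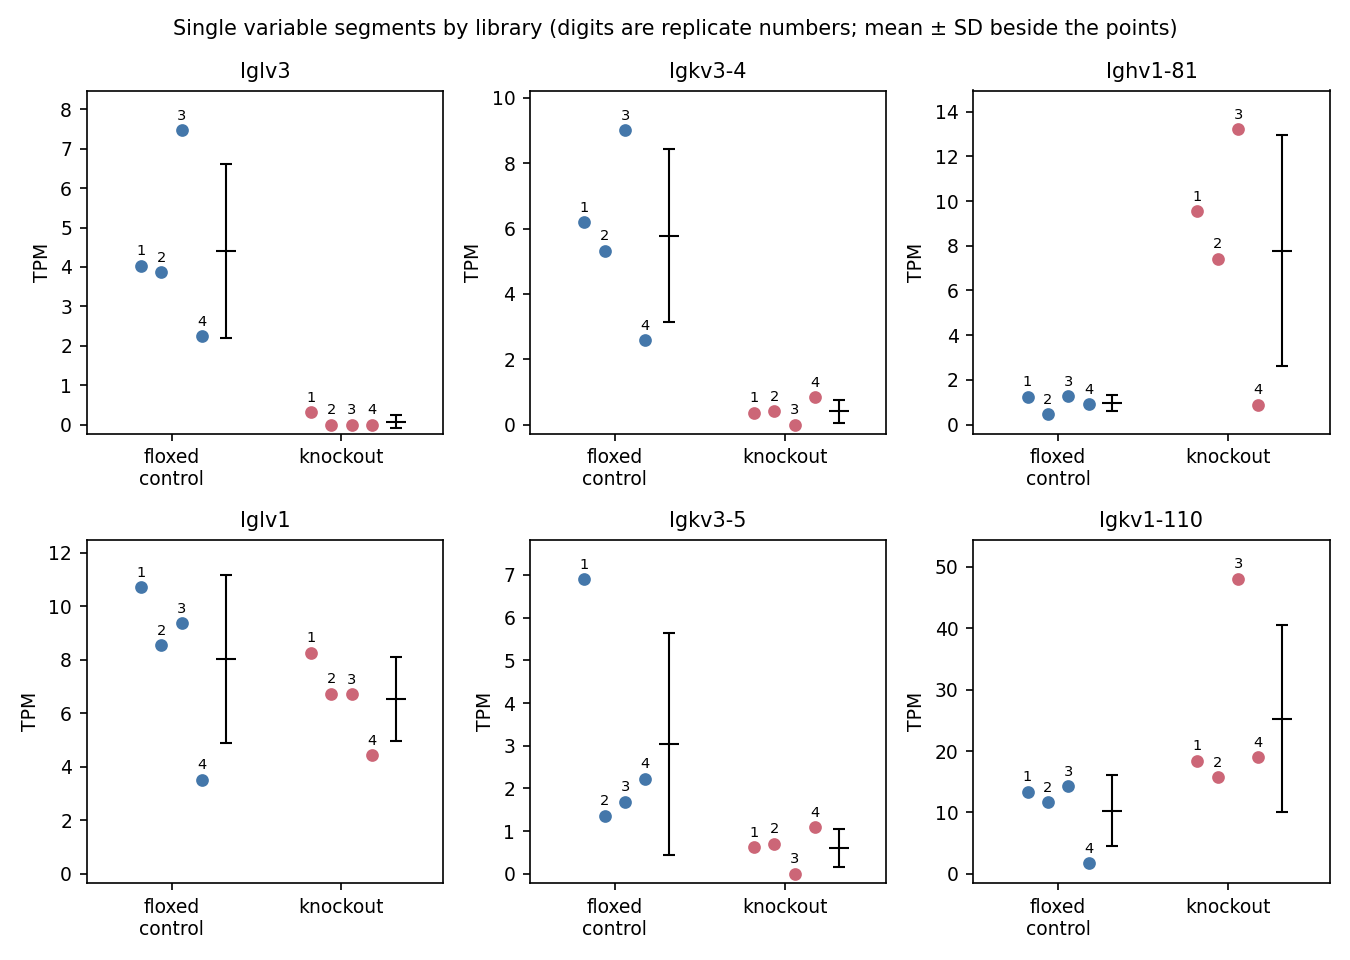
TPM of 6 variable segments in each library (y axes in TPM; digits are replicate numbers; bars are mean ± SD of 4 libraries). Iglv3 and Igkv3-4 are near 0 in all knockouts, while Iglv1 overlaps between the groups; Ighv1-81 is high in knockouts 1, 2 and 3 but at 0.90 TPM in knockout 4.

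The other kappa segments without overlap were *Igkv10-96*, *Igkv14-111* and *Igkv1-110*, and none of them passed the test. *Igkv10-96*, the most abundant kappa segment of floxed controls 1, 2 and 4, stood at 24.9, 29.7, 21.2 and 17.0 TPM across the controls and at 16.2, 8.66, 8.5 and 13.8 TPM across the knockouts. The gap between floxed control 4 and knockout 1 was small, and the log2 fold change was -0.94 ± 0.23 (SE; adjusted p = 0.208 in limma). *Igkv14-111*, with 100% of its windows its own, measured 4.39, 2.52, 2.96 and 2.04 TPM across the controls and 1.02, 0.39, 1.29 and 0.80 TPM across the knockouts (log2 fold change of -1.08 ± 0.22 SE, limma adjusted p = 0.134). *Igkv1-110* (ENSMUSG00000093861) was the 1 segment higher in every knockout than in every control. It measured 13.4, 11.7, 14.2 and 1.72 TPM across the controls and 18.4, 15.7, 48.1 and 19.0 TPM across the knockouts. Knockout 3 was far above the others and floxed control 4 far below, and the log2 fold change was 1.35 ± 0.53 (SE; adjusted p = 0.542 in limma). Without floxed control 4 and knockout 2 it was 0.93, and without floxed control 4 alone 0.76.

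The heavy segments with groups that did not overlap numbered 3, all lower in the knockouts and all of low level. *Ighv1-80* measured 2.07, 5.20, 7.13 and 1.38 TPM across the controls and 1.15, 1.31, 0.49 and 0 TPM across the knockouts. *Ighv1-53* was at 2.07, 1.89, 2.93 and 1.38 TPM against 1.15, 0.44, 0.98 and 0.90 TPM. *Ighv5-17* was at 3.48, 2.01, 2.34 and 1.62 TPM against 1.35, 0, 1.36 and 1.26 TPM. The lowest control of each lay close to its highest knockout, and the adjusted p-values in limma were 0.289, 0.269 and 0.474. Low *Ighv1* values rose in steps: 0.46, 0.92 and 1.38 TPM in floxed control 4, 0.38, 0.76 and 1.15 in knockout 1. In knockout 2 they were 0.44, 0.87 and 1.31 TPM. For *Ighv1-80* and *Ighv1-53* the lowest control and the highest knockout stood on the same step, so that counted in steps these groups touched. With all 8 libraries 0 of 25 heavy segments passed in limma, and 9 had an unadjusted p under 0.05, as had 1019 of the 12710 genes. Among kappa segments 16 of 47 had an unadjusted p under 0.05 in limma, and among lambda segments 1 of 2. These counts include *Igkv3-4* and *Iglv3*, which met the level rule by the controls alone and are not counted as evidence beyond their values. *Igkv1-110*, *Igkv1-117*, *Igkv16-104*, *Igkv14-100* and, among heavy segments, *Ighv1-81* were higher in the knockouts, and the others lower. *Igkv16-104* and *Igkv14-100* were named after their values were seen.

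The heavy segments that dominated differed between libraries and, in 3 of 4 knockouts, were headed by the same one. *Ighv1-81* (ENSMUSG00000094689, chromosome 12) was at 1.24, 0.47, 1.26 and 0.92 TPM across the controls and at 9.55, 7.43, 13.2 and 0.90 TPM across the knockouts. Knockouts 1, 2 and 3 were thus well above every control, and knockout 4 was within the controls' range. The log2 fold change over all 8 libraries was 1.85 ± 0.52 (SE; adjusted p = 0.281 in limma). Only in the fit without knockout 4, of the 14 alternatives and 1 added later, did it pass (2.48 ± 0.23 SE; adjusted p = 0.00656 in limma). In knockouts 1, 2 and 3 it made up 12.7%, 14.1% and 14.5% of the heavy sum, and at most 2.06% in the controls and 0.98% in knockout 4.

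In each control another heavy segment came first, though in 3 of them by a narrow margin. *Ighv1-55* led floxed control 1 with 12.1 TPM, *Ighv1-64* control 2 with 12.0 TPM, *Ighv1-82* control 3 with 14.8 TPM and *Ighv1-19* control 4 with 3.56 TPM. The next were *Ighv1-72* at 12.08 TPM in control 1, 11.76 in control 2 and 11.12 in control 3, and *Ighv1-55* at 3.54 TPM in control 4. Each first segment made up between 7.1% and 9.9% of the heavy sum of its library. Knockout 4, the one without high *Ighv1-81*, was led by *Ighv1-55* at 11.8 TPM, or 12.9%. *Ighv1-72* was among the first 3 in 6 libraries, 3 of each group, without leading any. It measured 12.1, 11.8, 11.1 and 1.53 TPM across the controls and 6.53, 3.24, 8.96 and 3.81 TPM across the knockouts, and 8.6% of its windows were its own. *Ighv1-34* was among the first 3 in floxed control 2 and knockout 1, *Ighv1-50* in floxed control 4, *Ighv8-12* in knockout 2, *Ighv1-75* in knockout 4 and *Ighv9-1* in knockouts 3 and 4. *Ighv9-1* did not meet the rule, with 4.89 TPM in knockout 3, 6.87 TPM in knockout 4, 0.84 TPM in floxed control 3 and 0 elsewhere. In all, 11 heavy segments were among the first 3 of any library.

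*Ighv1-82* stood at 9.43, 7.80, 14.8 and 2.54 TPM across the controls and at 1.21, 0.69, 2.71 and 3.17 TPM across the knockouts. By level its groups overlapped through floxed control 4, with a log2 fold change of -1.62 ± 0.43 (SE; adjusted p = 0.251 in limma). By share of the heavy sum they did not: 4.63% to 9.89% in the controls and 1.31% to 3.46% in the knockouts. The reverse held for *Ighv1-80*, *Ighv1-53* and *Ighv5-17*, whose groups were apart by level but overlapped by share. How often shares overlap over all segments was not counted. The *Ighv1* family, the largest of the heavy chain with 17 of the 25 segments, made up 67.5% to 79.5% of the heavy sum over the 8 libraries, with overlapping ranges in the groups. Its summed level was 91.4 ± 39.5 TPM across the controls and 56.5 ± 10.7 TPM across the knockouts (SD, n = 4 per group).

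The kappa chain was led by other segments in the knockouts than in the controls. *Igkv10-96* led floxed controls 1, 2 and 4 with 10.3%, 9.5% and 12.9% of the kappa sum, and *Igkv6-23* led control 3 with 11.5%. *Igkv1-110* led knockouts 2, 3 and 4 with 14.4%, 21% and 10.5%, and *Igkv1-117* led knockout 1 with 15.8%. The change was not complete below the first place. *Igkv10-96* was among the first 3 in 7 libraries, knockouts 1, 2 and 4 included, and *Igkv1-110* was among the first 3 in floxed control 1. *Igkv6-23* was among the first 3 segments in all 4 controls and in 0 knockouts. It measured 14.9, 21.3, 35.6 and 9.32 TPM across the controls and 10.1, 4.21, 2.57 and 2.45 TPM across the knockouts (log2 fold change of -1.89 ± 0.43 SE, limma adjusted p = 0.186). Only knockout 1 reached into the range of the controls, above control 4.

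*Igkv1-117* was among the first 3 in all 4 knockouts and in 0 controls. It stood at 7.01, 15.2, 14.6 and 6.43 TPM across the controls and at 37.5, 12.1, 19.0 and 13.6 TPM across the knockouts, so that its levels overlapped (log2 fold change of 0.82 ± 0.36 SE, limma adjusted p = 0.617). As a share of the kappa sum it did not overlap, at 2.90% to 4.90% in the controls and 7.55% to 15.8% in the knockouts. The share of *Igkv1-110* was 1.31% to 5.53% and 7.78% to 21%, and that of *Igkv6-23* was 6.18% to 11.5% and 1.12% to 4.28%. *Igkv10-96* and *Igkv3-5*, whose groups were apart by level, overlapped by share. For *Igkv10-96* it was 6.88% to 12.9% in the controls and 3.72% to 7.94% in the knockouts. Shares are relative: a rise of 1 segment lowers those of the others. Because *Igkv1-110* and *Igkv1-117* are nearly identical in sequence, their sum was taken too. It was 20.4, 26.8, 28.8 and 8.15 TPM across the controls and 55.9, 27.8, 67.1 and 32.6 TPM across the knockouts, with knockout 2 below control 3.

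**Figure D4:**
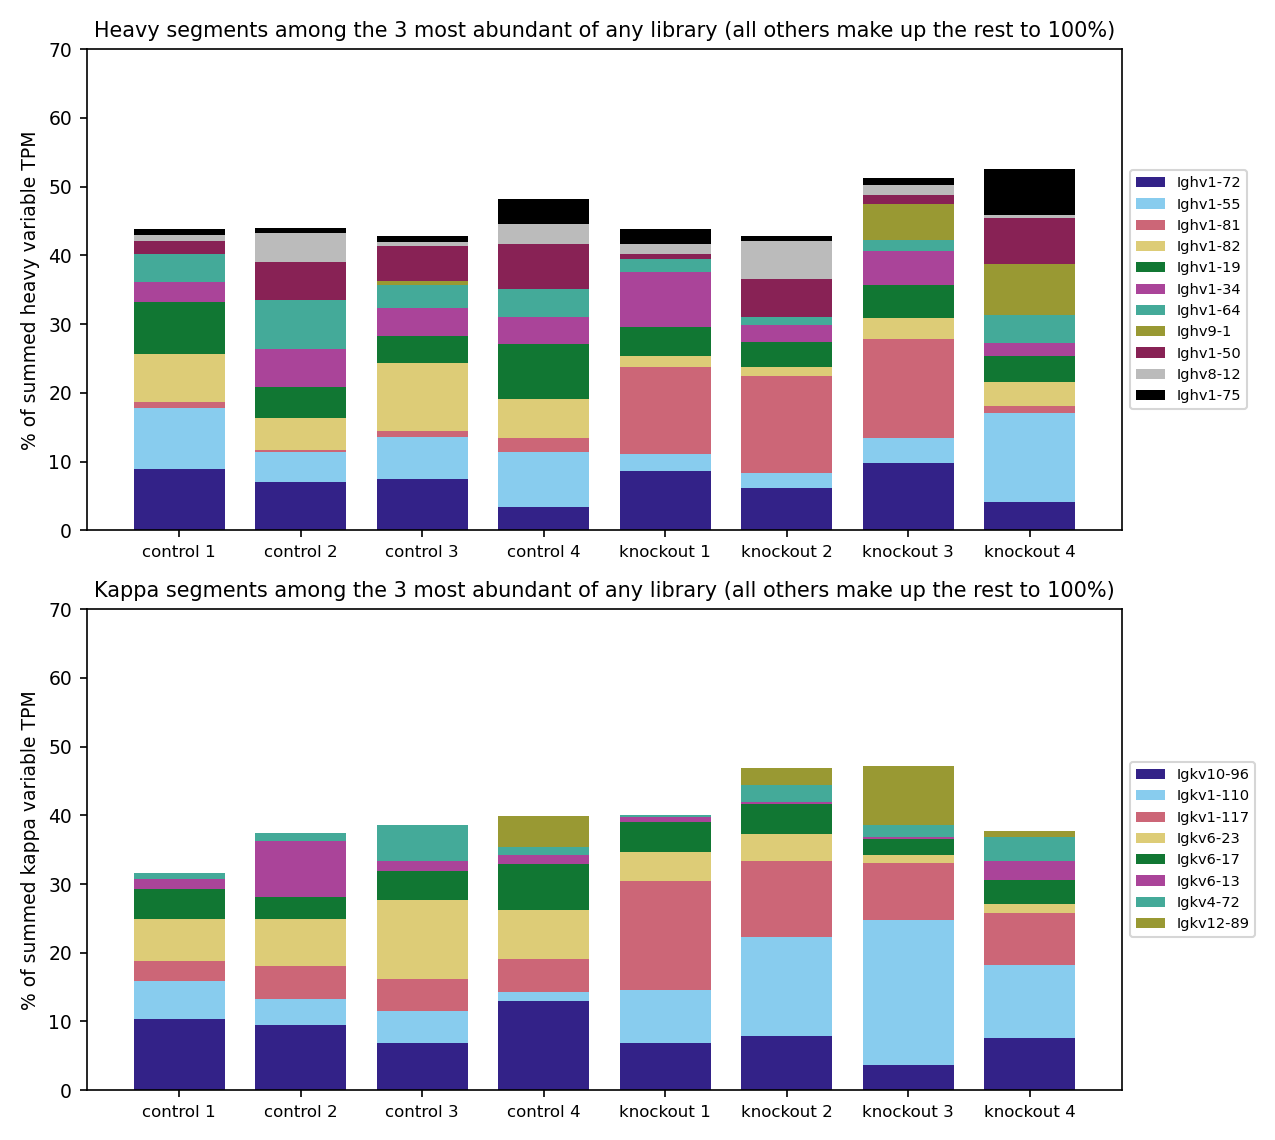
Share of the summed heavy (top) and kappa (bottom) variable TPM in each library (y axis, percent) held by the 11 heavy and 8 kappa segments that were among the first 3 of any library. Ighv1-81 makes up 12.7% to 14.5% in knockouts 1, 2 and 3, and Igkv1-110 and Igkv1-117 are broader in every knockout than in every control.

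By family, *Igkv6* had the highest summed level of the kappa chain over all 8 libraries, though not over the knockouts, at 56.2 ± 22.6 TPM across the controls and 23.4 ± 12.1 TPM across the knockouts (SD, n = 4 per group). It made up 19.0% to 24.5% of the kappa sum in the controls and 8.15% to 17.2% in the knockouts. *Igkv1*, the family of the 2 segments that led the knockouts, was at 28.8 ± 11.1 TPM and 49.0 ± 19.1 TPM, or 9.50% to 13.4% and 19.6% to 30.4% of the kappa sum. *Igkv1* was described after its values were seen, and neither family was tested.

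Some segments were high in a single library. In 4 of 25 heavy and 10 of 47 kappa segments the highest library had at least 2 times the level of the next. *Igkv6-13* was at 25.3 TPM in floxed control 2 and at 5.0 TPM or less elsewhere. *Igkv12-89* was at 19.5 TPM in knockout 3 and at 5.77 TPM in floxed control 4, the next, and was listed at 0 in floxed controls 1, 2 and 3 and in knockout 1. *Ighv1-75* was at 6.09 TPM in knockout 4 and at 1.64 TPM or less elsewhere. *Igkv4-61*, named after its values were seen, was at 15.1 TPM in knockout 1 and at 4.44 TPM or less elsewhere. Both groups held such libraries.

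By the evenness index used here, the heavy chain was more concentrated in every knockout than in every control. The effective number of heavy segments (the inverse Simpson index, the number of equally used segments that would give the same evenness) was 24.2, 28.8, 26.4 and 23.5 in the controls and 21.8, 19.8, 19.8 and 21 in the knockouts. Floxed control 4, with the lowest heavy sum, was at 23.5. The share of the first 3 heavy segments was also apart, at 19.6% to 25.4% in the controls and 25.8% to 29.7% in the knockouts. That of the first 10 overlapped, at 50.5% to 54.8% in the controls and 54.1% to 57.9% in the knockouts. For the kappa chain the effective number was 29.7, 25.9, 26.5 and 22.7 in the controls and 18.5, 18.3, 13.6 and 25.4 in the knockouts. There knockout 4 lay within the controls' range. The number of heavy segments at 1 TPM or more overlapped, at 18 to 35 in the controls and 20 to 26 in the knockouts, as did that of kappa segments, at 35 to 56 and 29 to 43. These indices were not tested.

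Libraries were also compared in pairs by their usage in common, the percentage of the chain's sum allotted to the same segments in both. For the heavy chain this was 58.0% to 72.0% (median 61.1%) between 2 controls, 37.6% to 68.8% (median 51.85%) between 2 knockouts, and 44% to 59.1% (median 53.35%) between a control and a knockout. The lowest value, 37.6%, was between knockouts 2 and 4 and the highest among knockouts, 68.8%, between knockouts 1 and 3. For the kappa chain it was 57.5% to 69.7% (median 65.6%) between controls, 52.2% to 65.4% (median 61.75%) between knockouts and 46.5% to 61.4% (median 56.75%) between a control and a knockout. The kappa median was thus higher within each group than between groups, while the heavy median between knockouts was not, and the ranges of the 3 kinds of pair overlapped in both chains.

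The constant genes give a second reading of the same chains, and in limma 0 of the 9 that were tested passed. An unadjusted p under 0.05 in limma was found for 2, *Ighm* and *Ighg2c*, against 1019 of the 12710 genes tested. *Igkc*, the kappa constant gene, was at 160, 203, 189 and 119 TPM across the controls and at 186, 72.3, 142 and 111 TPM across the knockouts, with overlapping groups (log2 fold change of -0.45 ± 0.26 SE, limma adjusted p = 0.75). *Igha*, the IgA heavy chain and the most abundant heavy constant gene, was at 78.0, 77.0, 96.9 and 43.9 TPM across the controls and at 75.2, 34.0, 67.2 and 45.8 TPM across the knockouts (-0.42 ± 0.28 SE; adjusted p = 0.797 in limma). In both genes floxed control 4 was the lowest control and knockout 2 the lowest knockout. *Ighm*, the IgM heavy chain used by naive B cells, was higher in every knockout than in every control, at 6.53, 6.35, 7.03 and 5.16 TPM against 8.57, 8.02, 11.5 and 8.63 TPM, and did not pass (0.48 ± 0.14 SE; adjusted p = 0.323 in limma).

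The IgG genes *Ighg2c* (18.2 ± 7.79 and 9.20 ± 3.20 TPM; SD, n = 4 per group), *Ighg2b* (15.5 ± 10.3 and 11.4 ± 7.05 TPM) and *Ighg1* (2.56 ± 1.37 and 2.92 ± 3.76 TPM) overlapped between controls and knockouts. *Ighd*, the IgD heavy chain, was near 1 TPM in both groups, and *Ighg3* and *Ighe* stayed below 1 TPM. Of the lambda constant genes, *Iglc2* was at 4.09 ± 0.76 and 2.95 ± 0.59 TPM and *Iglc3* at 2.50 ± 0.76 and 2.97 ± 1.02 TPM, both with overlapping groups. *Iglc1* was below the level rule, and *Iglc4* and all 14 listed joining segments were at 0 in every library. The ratio of summed variable to summed constant TPM was 1.10 to 1.63 for kappa and 0.599 to 1.18 for heavy, with overlapping groups. For lambda it was 1.18 to 2.32 in the controls and 0.895 to 1.13 in the knockouts. That lambda sum includes *Iglv3*, which met the level rule by the controls alone, so the ratio is no separate result. Without *Iglv3* the ratio was not computed, and the summed level of *Iglv1* and *Iglv2* overlapped between the groups.

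**Figure D5:**
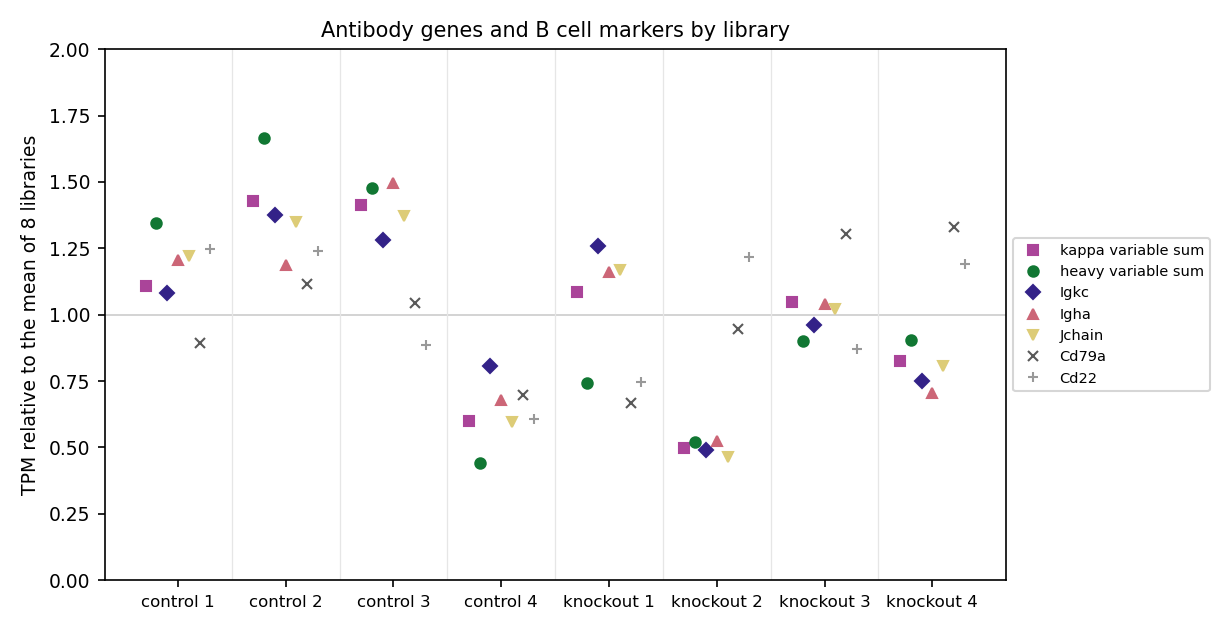
TPM of antibody genes and of the B cell markers Cd79a and Cd22 relative to the mean of the 8 libraries (y axis, ratio; 1 marks the mean). The variable sums, Igkc, Igha and Jchain are all low in floxed control 4 and knockout 2, while Cd22 lies above its mean in knockout 2.

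No marker gene of B lineage cells passed the test. Of 14 B cell markers, 4 were tested in limma and 0 passed, or had an unadjusted p under 0.05, all 4 with a higher mean in the knockouts, and 6 stayed below 1 TPM in every library, *Ms4a1* (CD20) among them. The summed level of the list was 12.5 to 22.3 TPM across the controls, with floxed control 4 the lowest, and 21 to 24.1 TPM across the knockouts. *Cd79a*, a signalling chain of the B cell receptor, was at 1.37, 1.71, 1.6 and 1.07 TPM across the controls and at 1.02, 1.45, 2.0 and 2.04 TPM across the knockouts. Of 12 plasma cell markers, 7 were tested in limma and 0 passed, 2 with a lower and 5 with a higher mean. Of these 7, 3 had an unadjusted p under 0.05 in limma, against 1019 of the 12710 genes tested. Among these 3, *Derl3* and *Txndc5* had a higher mean with the knockout (log2 fold changes of 0.53 and 0.27) and *Tent5c* a lower one (-0.36). The list had a sum of 388 to 407 TPM across the controls and 375 to 496 TPM across the knockouts. Most of that sum came from genes that hepatocytes also express, such as *Xbp1* and *Sdc1*, which are among the 5 higher ones. The 2 lower ones were *Jchain* and *Tent5c*. *Tent5c* stood at 2.37 to 3.13 TPM across the controls and 1.64 to 2.20 TPM across the knockouts (adjusted p = 0.518 in limma). The untested markers, *Mzb1*, *Irf4*, *Prdm1*, *Pou2af1* and *Tnfrsf17*, were of low level and had lower means in the knockouts. *Jchain*, which links IgA and IgM into polymers, was at 15.3, 16.9, 17.2 and 7.45 TPM across the controls and at 14.7, 5.82, 12.8 and 10.1 TPM across the knockouts (log2 fold change of -0.36 ± 0.30 SE, limma adjusted p = 0.860). The plasma cell regulators *Irf4* and *Prdm1* and the receptor *Tnfrsf17* were below 1 TPM in every library. The part of B lineage cell number in the segment levels was not tested.

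Of 6 precursor B cell genes, *Rag2* and *Vpreb2* were at 0 in every library and 1, *Dntt*, was tested (2.65 ± 0.70 and 2.62 ± 0.80 TPM). In limma 0 members passed among the lists for antibody receptors and transport (7 tested), class switching (5), plasma cell survival and homing (4), T cells (4), Kupffer cells (4), liver endothelium (4), red blood cells (5) or hepatocytes (7). Over all cell type and function lists, 13 of 52 tested genes had an unadjusted p under 0.05 in limma, against 1019 of all 12710 genes tested. Of the 13, 4 were the globin genes *Hba-a1*, *Hba-a2*, *Hbb-bs* and *Hbb-bt*. Summed red blood cell genes were at 690 to 1157 TPM across the controls and 923 to 1891 TPM across the knockouts with overlapping ranges, and the part of blood in the segment levels was not tested. All 4 endothelial genes had a lower mean in the knockouts (31.2 to 87.8 and 38.7 to 56.2 TPM summed). *Pigr*, the hepatic and epithelial carrier of polymeric IgA, was at 501 ± 27.5 and 516 ± 23.0 TPM (SD, n = 4 per group). Hepatocyte genes were abundant in all 8 libraries, as the tissue label has it, with 65652 to 86958 TPM summed over *Alb* and 6 others.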

How the data were processed

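Liver RNA was sequenced in 4 floxed control and 4 knockout samples, grouped and numbered by their titles. The authors deposited TPM values for 55416 mouse gene identifiers, made with RSEM 1.3.3 according to the submitters' processing notes, where the build GRCh38.p13, a human one, is named. As aligner, annotation release and strand handling are not given in the sources, no coordinates are printed. TPM is a share of each library (sums of 994563 to 995449) and keeps no depth, and segments of near-identical sequence can exchange reads in an estimated abundance. Symbols were found for 52083 identifiers. The segments and gene lists were chosen with earlier results of these data known.

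Values were tested as log2(TPM + 1) in limma 3.58.1 (R 4.3.3; lmFit, eBayes with trend) over the 12710 genes at 1 TPM or more in at least 4 of 8 libraries, with Benjamini-Hochberg adjustment and a threshold of 0.05; the fit was tested on simulated data. Sums, shares, usage in common and effective numbers are descriptions. Named segments passed, or had groups without overlap, or were among the first 3 of a library, or lay next to the level rule; all constant and joining genes and up to 4 members of each other list were eligible too. As alternatives, the fit was repeated with pseudocounts of 0.1 and 5, without a filter, with a filter at a mean of 1 TPM, after median-of-ratios scaling, with the replicate number as a block, without each library in turn and, chosen after seeing the data, without floxed control 4 and knockout 2 together. Coding sequences were read from GENCODE M21 (GRCm38), without untranslated bases, and aligned in pairs with Biopython 1.88; all 348 listed segments were found and 218, all 74 among them, had a coding sequence. A window of 50 bases counted as a segment's own if no transcript of the other listed variable segments, pseudogenes included, held it.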

Additional observations from a re-analysis of the deposited data

Results flagged for a closer look

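In groups of 4, a library was set apart where its gap to the nearest other over the range of the group exceeded Dixon's 95% critical value. Of the 80 groups looked at, 12 had such a library. Chance alone flags about 1 in 20 groups, but this share does not apply here: segments were named partly for leading a single library, and some groups have 3 values at 0. Among the controls, *Ighv1-72* was at 1.53 TPM in floxed control 4, with the next at 11.12, and *Ighv8-12* was at 7.19 TPM in floxed control 2, with the next at 1.31. *Ighv9-1* was at 0.84 TPM in floxed control 3 and 0 in the other controls, and *Igkv12-89* at 5.77 TPM in floxed control 4 and 0 in the other controls. *Igkv3-5* was at 6.90 TPM in floxed control 1 (next 2.23), *Igkv4-72* at 16.35 TPM in floxed control 3 (next 3.41) and *Igkv6-13* at 25.34 TPM in floxed control 2 (next 4.66). The constant gene *Ighg2b* was at 30.88 TPM in floxed control 2 (next 11.92). Among the knockouts, *Ighv5-17* was at 0 TPM in knockout 2 (next 1.26), *Igkv1-110* at 48.08 TPM in knockout 3 (next 18.98) and *Igkv12-89* at 19.46 TPM in knockout 3 (next 2.68). *Iglv3* was at 0.31 TPM in knockout 1 and 0 in the other knockouts.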

How the results depend on the processing

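All 11 segments fitted under the alternatives kept their direction in each. Over all genes, the 13 calls became 8 with a pseudocount of 0.1, 6 with a pseudocount of 5 and 0 with no filter (1539 genes at an unadjusted p under 0.05) or with a mean of at least 1 TPM (1006), and in limma with the last 2 filters 0 variable segments passed. Median-of-ratios scaling gave 10 calls, 7 lower and 3 higher against 7 and 6, and moved the share of all genes with a negative fold change from 35.4% to 50%. Leaving out 1 library gave 0 to 16 calls, namely 0 when floxed control 1 or knockout 3 was dropped, 2 for knockout 2, 3 for floxed control 4 and 5 for knockout 1. Without floxed control 4 and knockout 2 together, 4 genes passed, all lower, *Iglv3* and *Igkv3-4* among them (adjusted p = 0.0444 each in limma). Over all alternatives the adjusted p in limma was 0.0119 to 0.167 for *Iglv3* and 0.0119 to 0.202 for *Igkv3-4*. Leave-one-out log2 differences of the summed levels of segments that met the rule were -1.03 to -0.43 for heavy (-0.61 with all 8), -0.59 to -0.09 for kappa (-0.33) and -1.18 to -0.66 for lambda (-0.84); the heavy and kappa extremes of -1.03 and -0.59 came without floxed control 4, and -0.09 without knockout 2. The lambda sum without its most abundant segment could not be compared, as it was 0 in some libraries. With the replicate number as a block, 0 genes passed in limma (743 at an unadjusted p under 0.05), and the adjusted p was 0.0803 for *Iglv3* and 0.139 for *Igkv3-4*. The numbers do not pair the samples by the labels: deviations of same-numbered libraries correlated at -0.15, 0.03, -0.15 and -0.20, and 0 controls correlated best with their own number. Depth is unknown and counting error was not computed, so differences near 1 TPM were not judged by it.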
